A study of Mus musculus with 3 samples.

Results

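Fezf2, Chd4 and 6 genes for self antigens that published work on mice ties to Fezf2 (Apob, Ttr, Fabp9, Calb1, Maoa and Resp18) were read across epithelial populations of the thymus and the skin. The members were taken by their symbols, and all 8 were found among the 22609 gene symbols of the deposited expression table. The libraries came from C57BL/6 mice. Cortical thymic epithelial cells (cTEC) and medullary thymic epithelial cells (mTEC) were sorted from the thymi of 14 mice at postnatal age 7 days, and skin epithelial cells (skinEC, keratinocytes of trunk and back) from 7 newborn mice. Both thymic populations lacked CD45 and carried EpCAM. The cTEC gate took cells with Ly51 and no binding of the lectin UEA1, the mTEC gate took cells with UEA1 binding and no Ly51, and the skin gate took cells with EpCAM and no CD11c. No mouse carried a labelled deletion or transgene, so Fezf2 and Chd4 were measured at their normal doses and the dependence of an antigen on either was not tested. Each population was 1 library of pooled mice, so no value has a replicate error, no test between populations was possible, and the order of levels has no spread to be read against.

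Fezf2 is a zinc finger transcription factor best known for specifying projection neurons of the forebrain. In the thymus medulla it is known to drive tissue-restricted self antigens, many of them apart from those driven by Aire, so that developing T cells meet proteins of distant organs before they leave the thymus. Chd4 is an ATP-driven chromatin remodeller and a core part of the NuRD repressor complex, and published work in mice describes it as a partner of Fezf2 in medullary cells. The antigens belong to unrelated organs. Apob is the structural protein of lipoproteins from liver and gut, Ttr the thyroid hormone and retinol carrier of plasma and cerebrospinal fluid, Fabp9 a fatty acid binding protein of sperm, Calb1 a calcium buffer of neurons and kidney, Maoa a mitochondrial enzyme that degrades monoamines, and Resp18 a protein of endocrine and neural cells that enters the regulated secretory route.

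Values are RPKM, the reads on a gene scaled by the length of its model and by the mapped reads of the library, so levels can be set side by side between genes. The steps between low values gave about 56800000 reads for cTEC, 55700000 for mTEC and 56100000 for skinEC, and the members therefore had nearly equal depth in all libraries. The sorted populations carried their markers. The cortical list of 6 genes had 5 at least 4-fold higher in cTEC than in mTEC, the medullary list of 7 genes had 7 at least 4-fold higher in mTEC, and of 8 epidermal markers 6 were at least 4-fold higher in skinEC than in cTEC and 4 than in mTEC. Lor, a cornified envelope gene, had 30.3 RPKM in skinEC against 38.03 RPKM in mTEC, and the keratin genes Krt5 and Krt14 of the medullary list were higher in skinEC than in mTEC, with log2 ratios of -4.98 and -5.54 for mTEC over skinEC. Krt10, a keratin of differentiating epidermis, reached 1998 RPKM in skinEC against 63.4 RPKM in mTEC and 5.65 RPKM in cTEC. Markers of leukocytes were present with the medullary cells. The 12 myeloid and dendritic markers summed to 834 RPKM in mTEC, against 6.89 RPKM in cTEC and 9.0 RPKM in skinEC. Of these, 8 stood at least 4-fold higher in mTEC than in cTEC, Xcr1 and Siglech were listed at 0 in cTEC, Xcr1 was listed at 0 in skinEC, and none was listed at 0 in mTEC. In the order cTEC, mTEC and skinEC, the 6 B cell markers summed to 1.35, 53.5 and 0.338 RPKM, and the 10 thymocyte markers to 16.2, 32.3 and 5.22 RPKM. Endothelial markers summed to 18.8, 12.8 and 0.257 RPKM, and fibroblast markers to 41.2, 113 and 34.1 RPKM. The part of such cells in the values below was not tested, and in pooled bulk libraries fewer expressing cells and less RNA per cell cannot be told apart.

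Of the 8 members, 6 were high in mTEC and close to silent in the other libraries, and 2, Chd4 and Maoa, were not. Fezf2, Apob, Ttr, Fabp9, Calb1 and Resp18 were each at least 4-fold higher in mTEC than in cTEC on the log2(RPKM + 1) scale, and the same 6 were at least 4-fold higher in mTEC than in skinEC. Apob and Resp18 are listed at 0 in skinEC, so the size of their ratios over skinEC is set by the mTEC level and the added 1 RPKM. Over the 16869 genes that reached 1 RPKM in any library, 15.2% were that much higher in mTEC than in cTEC and 16.8% that much higher in mTEC than in skinEC. These comparisons share the mTEC library, so the second count is not separate evidence. No member was at least 4-fold higher in cTEC or skinEC than in mTEC, where the shares over all genes were 2.69% and 4.2%. Between cTEC and skinEC, 0 members passed in either direction, against 6.3% of genes higher in cTEC and 5.82% higher in skinEC. At 1 RPKM or more there were 8 members in mTEC, 2 in cTEC and 2 in skinEC, against 72.4%, 55.7% and 53.5% of all symbols. With a pseudocount of 5 RPKM in place of 1, the members higher in mTEC numbered 3 in each comparison (Fezf2, Fabp9 and Resp18), since Apob, Ttr and Calb1 lay near 10 RPKM or below in mTEC.

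**Figure D1:**
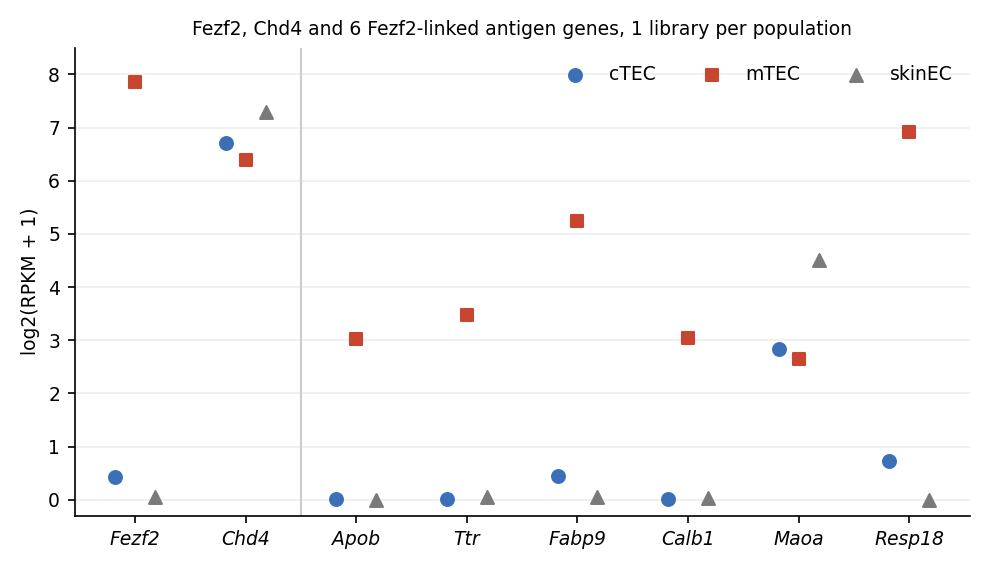
Level of each member in each library, as log2(RPKM + 1), with 1 point per library and no error bar because each population has 1 library; the line separates Fezf2 and Chd4 from the antigen genes. Fezf2, Apob, Ttr, Fabp9, Calb1 and Resp18 are high in mTEC (squares) and near 0 elsewhere, while Chd4 and Maoa are highest in skinEC (triangles).

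Fezf2 (Entrez 54713) was at 231 RPKM in mTEC, 0.353 RPKM in cTEC and 0.0388 RPKM in skinEC. It was the highest of the 8 members in mTEC and stood at rank 204 of all symbols there. The log2 ratio was 7.42 over cTEC and 7.80 over skinEC, and the plain RPKM ratio over cTEC was 655. At the length of its RefSeq-matched transcript, the cTEC value corresponded to about 44 reads and the skinEC value to about 5, so the gene was detected in both at a trace level. Aire, the other known driver of such antigens, was at 1129 RPKM in mTEC, 1.20 RPKM in cTEC and 0.148 RPKM in skinEC, and had the same order of libraries as Fezf2 at a higher level in each.

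The genes whose levels over the 3 libraries were nearest to those of Fezf2 came from several cell types. By Euclidean distance over log2(RPKM + 1) they were the histamine-forming enzyme gene Hdc (distance 0.40, 301 RPKM in mTEC), the myeloid lysozyme gene Lyz2 (0.44, 283 RPKM), the acute phase gene Saa1 (0.56, 182 RPKM), the intestinal transcription factor gene Cdx1 (0.64, 149 RPKM) and the neuropeptide gene Calcb (0.72, 332 RPKM). Of these 5, 3 were also among the nearest with a pseudocount of 0.1 RPKM. Lyz2 is also on the myeloid list given above.

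Genes that work with Fezf2 in forebrain neurons were divided. Of 9 such genes, 7 reached 1 RPKM in any library, and 3 of the 9 were at least 4-fold higher in mTEC than in cTEC, with a median log2 ratio of 1.26 against 0.08 over all genes tested. Pcp4, a calmodulin-binding peptide gene, was at 53.9 RPKM in mTEC against 0.0551 RPKM in cTEC, and Crym, the mu-crystallin gene, at 31.2 and 0.295 RPKM. Bcl11b, the zinc finger factor gene that acts downstream of Fezf2 in corticospinal neurons, was at 2.20 RPKM in mTEC, 1.18 RPKM in cTEC and 53.7 RPKM in skinEC, so that its highest library was the one where Fezf2 was lowest. Zfpm2 had the smallest log2 ratio of the list, 0.04, with 0.203 RPKM in mTEC. Neuronal markers as a list of 9 had 4 at least 4-fold higher in mTEC than in cTEC and summed to 138 RPKM in mTEC, 5.09 RPKM in cTEC and 4.25 RPKM in skinEC, with Syt1, a synaptic vesicle calcium sensor gene, at 87.8 RPKM in mTEC. Neurod6, a factor gene of forebrain projection neurons, was at 0.0837 RPKM in mTEC but listed at 0 in the others.

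Genes of the Groucho corepressor family, some of whose proteins bind the repressor motif of Fezf2, were all above 0 in every library. In cTEC 4 of the 6 reached 1 RPKM, and in mTEC and skinEC all 6 did. Of 6 genes, 2 stood at least 4-fold higher in mTEC than in cTEC, Tle2 (9.72 against 0.662 RPKM) and Tle6 (4.21 against 0.175 RPKM), and the list median was 0.12. Both had values in skinEC close to those of mTEC, 6.61 RPKM for Tle2 and 4.31 RPKM for Tle6. The most abundant member, Aes, was at 298 RPKM in mTEC, 306 RPKM in cTEC and 241 RPKM in skinEC, the log2 ratio of mTEC over cTEC closest to 0 on the list (-0.04).

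The lymphotoxin and RANK receptors and their non-canonical NF-kB route, described in mice as upstream of medullary differentiation and, for the lymphotoxin receptor, of Fezf2, were divided. Of 15 genes, 4 stood at least 4-fold higher in mTEC than in cTEC while 0 were at least 4-fold lower. The median log2 ratio was 1.09 over the 14 that reached 1 RPKM in any library, which leaves out Cd40lg. Tnfrsf11a, which encodes RANK, was at 54.8 RPKM in mTEC, 0.865 RPKM in cTEC and 0.153 RPKM in skinEC, which is the order of Fezf2. Cd40, a further receptor of the family, was at 134, 20.6 and 0.0963 RPKM. The lymphotoxin receptor gene Ltbr went the other way, with 37.2 RPKM in mTEC, 131 RPKM in cTEC and 29.5 RPKM in skinEC, a log2 ratio of -1.79 for mTEC over cTEC. The other genes past 4-fold were the ligands Ltb (39.8 against 0.710 RPKM) and Lta (12.1 against 0.0894 RPKM), which lymphocytes also make. The B cell marker Cd79b was at 35.7 RPKM in mTEC against 0.826 RPKM in cTEC, and the part of B cells in the ligand values was not tested. Cd40lg had the log2 ratio closest to 0 on the list (0.08), at 0.0577 RPKM in mTEC but listed at 0 in the others.

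Chd4 (Entrez 107932) was abundant everywhere. It was at 82.8 RPKM in mTEC, 103 RPKM in cTEC and 155 RPKM in skinEC, within 2-fold between any pair of libraries. The log2 ratios were -0.31 for mTEC over cTEC, -0.90 for mTEC over skinEC and -0.59 for cTEC over skinEC. Its lowest library was thus the one where Fezf2 was highest. The difference from cTEC shrank to -0.03 when the libraries were scaled by the median ratio of well expressed genes, which by itself moved the median of all genes toward mTEC by 0.25. Chd4 stood at rank 879 in mTEC, 732 in cTEC and 533 in skinEC among all symbols. The genes nearest to it in level were Cox7b (distance 0.12), a respiratory chain subunit gene, the immediate early gene Ier2 (0.13) and the chaperone gene Bag6 (0.21), and all 3 stayed nearest with a pseudocount of 0.1 RPKM.

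Chd4 was the highest of the 10 CHD family remodellers in each library, per kilobase of gene model. Chd3, which can take its place in NuRD, followed in mTEC with 67.0 RPKM, in cTEC with 86.5 RPKM and in skinEC with 119 RPKM. Chd5, the neural and testis member, was at 0.980 RPKM in mTEC, 0.0899 RPKM in cTEC and 0.0892 RPKM in skinEC and was the sole CHD gene under 1 RPKM in all. No CHD gene was 4-fold apart between mTEC and cTEC. Chd6 was at 41.0 RPKM in mTEC, 73.6 RPKM in cTEC and 11.9 RPKM in skinEC, and was the 1 CHD gene at least 4-fold higher in a thymic library (cTEC) than in skinEC, chosen for mention after its values were seen.

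The NuRD subunits around Chd4 were mostly lower in mTEC than in skinEC, and none reached 4-fold. Of 15 genes, 14 were at 1 RPKM or more in every library and 0 were 4-fold apart in any of the 3 comparisons. Chd5, with a log2 ratio of 0.86 for mTEC over cTEC and 0.86 for mTEC over skinEC, is left out of the medians. For mTEC over cTEC, mTEC over skinEC and cTEC over skinEC, all genes tested had a median of 0.08, 0.16 and 0.00. In the same order the 14 NuRD genes had median log2 ratios of -0.42, -1.10 and -0.62. These medians stayed below 0 under each scaling tried, from -0.46 to -0.14 for mTEC over cTEC, from -1.10 to -0.63 for mTEC over skinEC and from -0.62 to -0.27 for cTEC over skinEC. Mta1, which links the deacetylases to the complex, had the largest difference between thymic libraries, with 23.7 RPKM in mTEC, 71.3 RPKM in cTEC and 77.7 RPKM in skinEC, a log2 ratio of -1.55 for mTEC over cTEC. The methyl-CpG domain gene Mbd3 was at 59.2, 113 and 180 RPKM in the same order (-0.92). The histone chaperone gene Rbbp7 had the smallest difference between thymic libraries, at 177 RPKM in mTEC, 176 RPKM in cTEC and 143 RPKM in skinEC.

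**Figure D2:**
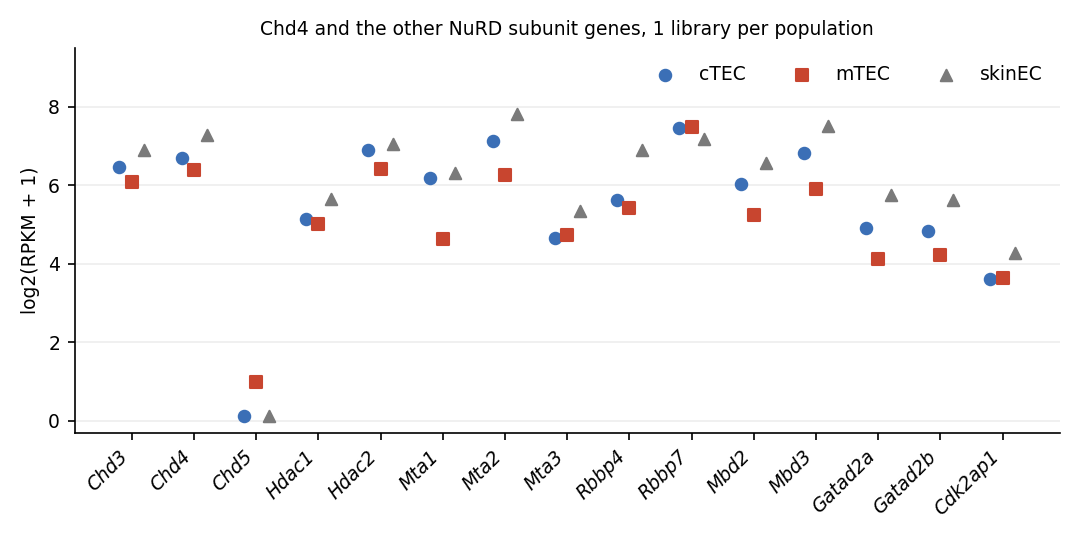
Chd4 and the other NuRD subunit genes in each library, as log2(RPKM + 1), with 1 point per library. Chd5 aside, every subunit lies above 3 on this scale in each library, and for most the mTEC square is the lowest of its 3 points.

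The antigens fell into tiers in mTEC. Resp18 (120 RPKM) and Fabp9 (37.0 RPKM) were the highest, Ttr (10.1 RPKM), Calb1 (7.19 RPKM) and Apob (7.08 RPKM) lay close together, and Maoa (5.25 RPKM) was the lowest. Their ranks among all symbols of mTEC ran from 533 for Resp18 through 2580 for Fabp9, 8209 for Ttr, 9849 for Calb1 and 9922 for Apob to 11178 for Maoa. An antigen with a log2 ratio of 3.0 over cTEC, such as Apob, could therefore still be in the middle of the mTEC range.

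**Figure D3:**
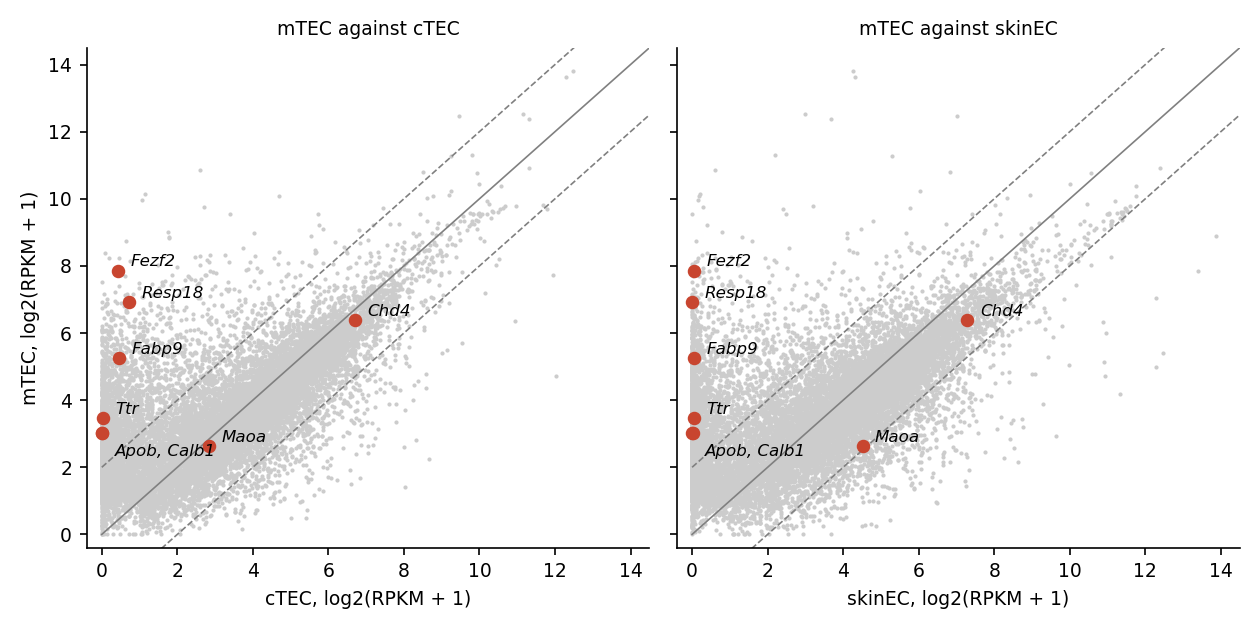
mTEC against cTEC (left) and against skinEC (right), each gene at its log2(RPKM + 1); grey points are the 16869 genes tested, the solid line marks equal values and the dashed lines a log2 ratio of 2 in either direction. Fezf2, Resp18, Fabp9, Ttr, Apob and Calb1 lie above the upper dashed line near the left edge, Chd4 lies between the dashed lines, and Maoa lies between them on the left and near the lower one on the right.

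Resp18 (Entrez 19711) was at 120 RPKM in mTEC against 0.647 RPKM in cTEC and is listed at 0 in skinEC. The log2 ratio of mTEC over cTEC was 6.20 and the plain RPKM ratio 186. The cTEC value corresponded to about 27 reads. It was the only member besides Fezf2 above 100 RPKM in mTEC alone. The nearest genes in level were the neuropeptide gene Nts (distance 0.19, 110 RPKM in mTEC), the surface antigen gene Psca (0.20, 117 RPKM) and the calcitonin gene Calca (0.24, 117 RPKM), and none of the 3 was among the nearest with a pseudocount of 0.1 RPKM.

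The endocrine granule genes that serve the same secretory route were partly higher in mTEC. Of 12 such genes, 6 stood at least 4-fold higher in mTEC than in cTEC while 0 were at least 4-fold lower. The median log2 ratio was 2.02 over the 11 that reached 1 RPKM in any library, which leaves out Pcsk1n. Vgf, a granule peptide precursor gene, was at 21.9 RPKM in mTEC against 0.0415 RPKM in cTEC, and Scg5, which escorts a prohormone convertase, at 37.4 and 1.32 RPKM. Ptprn, which encodes the islet antigen IA-2 and is related in sequence to Resp18, was at 6.92 RPKM in mTEC, 0.0600 RPKM in cTEC and 0.390 RPKM in skinEC. Chga, the chromogranin A gene, differed from the others, with 77.3 RPKM in mTEC, 89.7 RPKM in cTEC and 2.27 RPKM in skinEC. Resp18 exceeded each of the 12 in mTEC. The home tissue lists hold few genes and were made to give the antigens a setting, so their counts describe these libraries only.

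Fabp9 (Entrez 21884) was at 37.0 RPKM in mTEC, 0.362 RPKM in cTEC and 0.0306 RPKM in skinEC. Its log2 ratio was 4.80 over cTEC and 5.20 over skinEC. The values corresponded to about 1201, 12 and 1 reads, so the plain RPKM ratio over skinEC is not given. The log2 ratio over skinEC is set by the mTEC level and the pseudocount. Ebi3, a cytokine subunit gene, was nearest to Fabp9 in level (distance 0.03), followed by the chemokine gene Ccl8 (0.16) and the phospholipase gene Pla1a (0.16). Only 1 of these 3 was among the nearest with a pseudocount of 0.1 RPKM.

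Fabp9 belongs to a family in which most members were higher in mTEC. Of 10 fatty acid binding protein genes, 8 stood at least 4-fold higher in mTEC than in cTEC, with a median log2 ratio of 3.66. Fabp6, which carries bile acids in the ileum, had the largest ratio, at 129 RPKM in mTEC, 0.0913 RPKM in cTEC and 0.648 RPKM in skinEC. Fabp4, the adipocyte and macrophage member, was at 747 RPKM in mTEC, 51.6 RPKM in cTEC and listed at 0 in skinEC. Fabp5, the epidermal member, was the family's exception, with 898 RPKM in mTEC, 3295 RPKM in cTEC and 260 RPKM in skinEC. Fabp12 had the log2 ratio closest to 0 of the family, 1.38, at 1.83 RPKM in mTEC against 0.0844 RPKM in cTEC. At such low values the added 1 RPKM shrinks the ratio. Fabp5, Pmp2, Fabp9, Fabp4 and Fabp12 stand next to each other on the same chromosome in the RefSeq annotation, in that order, and mTEC held 898, 24.8, 37.0, 747 and 1.83 RPKM of them. Other genes of sperm were lower in level than Fabp9 in mTEC. Of 12 such genes, 6 were at 1 RPKM or more in any library and 3 were at least 4-fold higher in mTEC than in cTEC. Tnp2, a transition protein gene, was at 6.03 RPKM in mTEC against 0.385 RPKM in cTEC, Ldhc, the sperm lactate dehydrogenase gene, at 3.65 RPKM in mTEC but listed at 0 in the others, and Odf1, an outer dense fibre gene, at 0.114 RPKM in mTEC. Odf2, which also serves centrosomes, was the 1 gene of the list above Tnp2 in mTEC and had its lowest value there, at 28.0 RPKM in mTEC, 34.6 RPKM in cTEC and 46.2 RPKM in skinEC.

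Ttr (Entrez 22139) was at 10.1 RPKM in mTEC, 0.0145 RPKM in cTEC and 0.0293 RPKM in skinEC. The log2 ratio was 3.45 over cTEC and 3.43 over skinEC. About 666 reads lay behind the mTEC value, about 1 behind the cTEC value and about 2 behind the skinEC value, so the ratios are set by the mTEC level and the pseudocount. Among the 3 nearest genes in level were Itih4 (distance 0.03), a plasma protein gene of liver, and the muscle acetylcholine receptor gene Chrng (0.03). Only 1 of the 3 was among the nearest with a pseudocount of 0.1 RPKM. Of 11 genes that share the plasma or the choroid plexus with Ttr, 5 stood at least 4-fold higher in mTEC than in cTEC. The median log2 ratio was 2.20 over the 9 that reached 1 RPKM in any library, which leaves out Serpina1a and Otx2. Alb, the albumin gene, was at 17.8 RPKM in mTEC but listed at 0 in the others. Rbp4, whose protein travels bound to that of Ttr, was at 11.9 RPKM in mTEC, 0.781 RPKM in cTEC and listed at 0 in skinEC. Serpina1a, a plasma protease inhibitor gene with close copies, was at 0.185 RPKM in mTEC, and Otx2, the factor gene that drives Ttr in choroid plexus, at 0.659 RPKM, and both are listed at 0 in cTEC and skinEC.

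Calb1 (Entrez 12307) was at 7.19 RPKM in mTEC, 0.0123 RPKM in cTEC and 0.0250 RPKM in skinEC. Its log2 ratio was 3.02 over cTEC and 3.0 over skinEC. These values corresponded to about 1691, 3 and 6 reads at the transcript length used. The nearest genes in level were the kynurenine pathway gene Kmo (distance 0.01), the oxidase gene Nox1 (0.03) and the neuropeptide gene Adcyap1 (0.03). Only 1 of these 3 was among the nearest with a pseudocount of 0.1 RPKM. Among 9 genes for calcium binding and transport, 7 reached 1 RPKM in any library, with a median log2 ratio of 2.69 for mTEC over cTEC. Trpv5 and Slc8a1 are left out of that median. Of the 9 genes, 4 stood at least 4-fold higher in mTEC than in cTEC. They included the related calcium buffers Calb2 (26.3 against 0.0370 RPKM), Pvalb (19.4 RPKM, listed at 0 in cTEC) and S100g (159 against 8.69 RPKM), each above Calb1 in mTEC. Vdr, the vitamin D receptor gene through which Calb1 is controlled in kidney, was the other, at 27.9 RPKM in mTEC, 3.48 RPKM in cTEC and 94.4 RPKM in skinEC. The calcium pump gene Atp2b1 had the smallest difference between thymic libraries (27.6 RPKM in mTEC, 32.5 RPKM in cTEC, 11.4 RPKM in skinEC).

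Apob (Entrez 238055) was at 7.08 RPKM in mTEC against 0.0114 RPKM in cTEC and is listed at 0 in skinEC. The log2 ratio over cTEC was 3.0. Its transcript is the longest of the members, and about 5492 reads lay behind the mTEC value and about 9 behind the cTEC value. Its nearest genes in level, the macrophage lectin gene Clec4f (distance 0.01), the neuropeptide gene Nms (0.02) and Spp2 (0.02), were also at about 7 RPKM in mTEC and near 0 elsewhere. Only 1 of these 3 was among the nearest with a pseudocount of 0.1 RPKM. Of 10 lipoprotein and fat absorption genes, 7 stood at least 4-fold higher in mTEC than in cTEC while 0 were at least 4-fold lower. The median log2 ratio was 3.54 over the 9 that reached 1 RPKM in any library, which leaves out A1cf. Apoa1 was at 65.6 RPKM in mTEC against 0.215 RPKM in cTEC, and Apoa4 at 76.2 and 2.23 RPKM, both lipoprotein components well above Apob. Mttp, which loads lipid onto the Apob protein, was at 13.1 RPKM in mTEC, 2.41 RPKM in cTEC and 1.76 RPKM in skinEC. The 2 genes of Apob mRNA editing differed, with the deaminase gene Apobec1 at 45.3 RPKM in mTEC, 10.9 RPKM in cTEC and 0.456 RPKM in skinEC, and the cofactor gene A1cf at 0.518 RPKM in mTEC but listed at 0 in the others. On the (RPKM + 1) scale A1cf had the smallest ratio of the list, with an mTEC value below the added 1 RPKM.

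Maoa (Entrez 17161) did not follow Fezf2. It was at 5.25 RPKM in mTEC, 6.10 RPKM in cTEC and 21.8 RPKM in skinEC. The log2 ratio was -0.18 for mTEC over cTEC, -1.87 for mTEC over skinEC and -1.69 for cTEC over skinEC. The small difference between thymic libraries turned to 0.06 with the median ratio scaling, so no direction between them is given. The difference from skinEC kept its direction under each alternative, from -2.04 to -1.39 for mTEC, and reached 4-fold with a pseudocount of 0.1 RPKM. About 1219 reads lay behind the mTEC value, about as many as the 1201 behind that of Fabp9, while in cTEC Maoa had about 1444 reads and Fabp9 about 12. The nearest genes in level were Plekhg6 (distance 0.12), the kinetochore gene Nuf2 (0.21) and the RNA exosome gene Exosc6 (0.23). With a pseudocount of 0.1 RPKM, 2 of these 3 stayed among the nearest.

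The genes around Maoa behaved otherwise. Of 12 monoamine genes, 9 stood at least 4-fold higher in mTEC than in cTEC, with a median log2 ratio of 2.87. Maob, its paralogue and chromosome neighbour, was at 5.58 RPKM in mTEC, 0.271 RPKM in cTEC and 2.83 RPKM in skinEC, a log2 ratio of 2.37 for mTEC over cTEC. In mTEC the levels of Maoa and Maob were thus close, while in cTEC Maoa was the higher. The serotonin transporter gene Slc6a4 was at 35.1 RPKM in mTEC against 0.495 RPKM in cTEC, and Th, the enzyme gene that starts catecholamine synthesis, at 11.7 RPKM in mTEC but listed at 0 in cTEC. Slc6a2, the noradrenaline transporter gene, had a log2 ratio of 0.97 for mTEC over cTEC and its highest value in skinEC, at 9.51 RPKM.

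**Figure D4:**
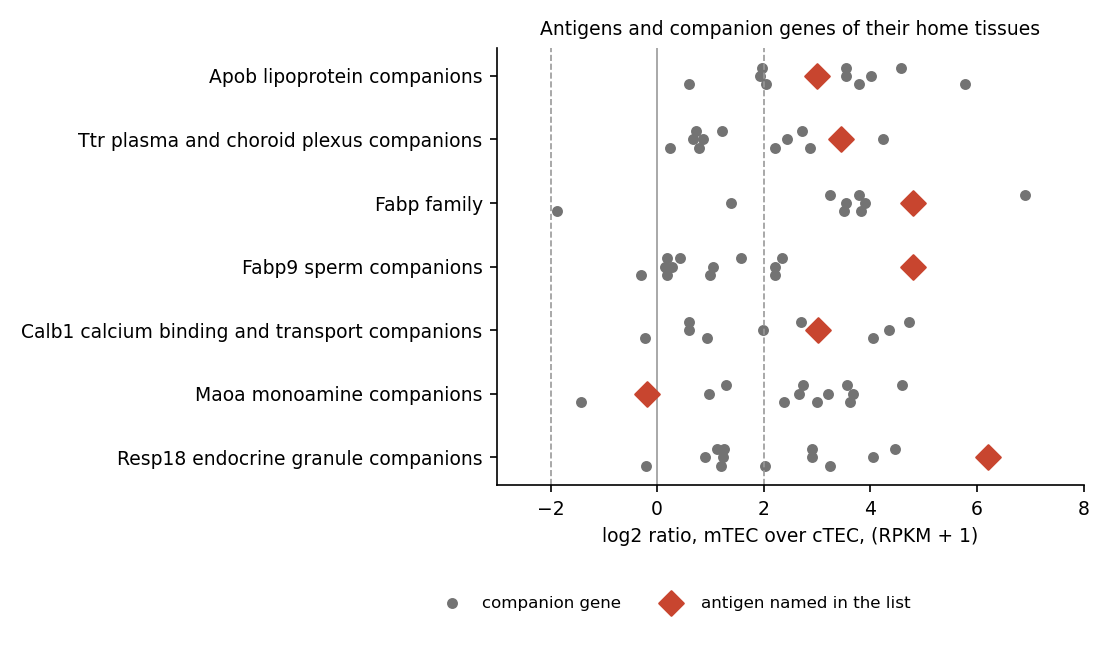
Log2 ratio of mTEC over cTEC, on the (RPKM + 1) scale, for each antigen (diamond) and for the companion genes of its home tissue or family (dots), with dashed lines at 2 in either direction. The diamond of Maoa lies at -0.18, to the left of most of its companions, while those of Resp18 and Fabp9 lie to the right of most of theirs.

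With a pseudocount of 5 RPKM the genes at least 4-fold higher in mTEC than in cTEC numbered 4 for the lipoprotein list, 1 for the Ttr list, 4 for the Fabp family, 0 for the sperm list, 2 for the monoamine list and 2 for the endocrine list. For the Groucho list they numbered 0, for the Fezf2 neuron list 2, for the neuronal markers 2, for the myeloid markers 3 and for the genes independent of Aire 1.

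Other antigens of medullary cells were set beside these. Of 8 genes often used as targets of Aire, 5 stood at least 4-fold higher in mTEC than in cTEC, with Csn2, a milk casein gene, at 1005 RPKM, Tff3, a gut trefoil gene, at 122 RPKM and Rbp3, the retinal autoantigen gene, at 0.205 RPKM in mTEC, and Spt1, a salivary protein gene, listed at 0 in all libraries. The 3 genes known as independent of Aire lay within, below and above the range of Ttr, Calb1 and Apob in mTEC, with Gad1, a neural glutamate decarboxylase gene, at 9.90 RPKM, the acute phase gene Crp at 5.07 RPKM and the cartilage collagen gene Col2a1 at 17.2 RPKM in mTEC. They were at 0.0219, 0.271 and 0.428 RPKM in cTEC. All 3 were at least 4-fold higher in mTEC than in cTEC, and Col2a1 was the 1 of them left with a pseudocount of 5 RPKM.

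The genes next to the members on their chromosomes were read by their order in the RefSeq annotation, 2 protein-coding genes on each side, a choice made after the members' values were known. Of the 24 neighbours of the 6 members higher in mTEC, 7 stood at least 4-fold higher in mTEC than in cTEC. Pmp2 and Fabp4, of the same family as Fabp9, were among the 7. Of the 8 neighbours of Chd4 and Maoa, 1 was that much higher (Maob), against 15.2% of all genes tested. That share leaves out genes below 1 RPKM in every library. The neighbour counts include such genes, Gdf7 among the 24 and H2al1n, Cypt1 and Ndp among the 8. Cadps, a vesicle priming gene next to Fezf2, was at 30.9 RPKM in mTEC, 0.103 RPKM in cTEC and 0.0786 RPKM in skinEC. Ptprg, the second gene on the other side of Fezf2, was at 23.0, 25.3 and 13.6 RPKM in the same order. None of the 4 neighbours of Apob was 4-fold apart between mTEC and cTEC, and the same held for the 4 neighbours of Calb1. Next to Resp18, Ptprn and the muscle filament gene Des (21.2 RPKM in mTEC, 1.85 RPKM in cTEC) were higher in mTEC, while Dnpep was at 65.0, 66.7 and 76.4 RPKM in mTEC, cTEC and skinEC. Next to Ttr stood the desmoglein gene Dsg3, an autoantigen of the skin, at 3.82 RPKM in mTEC, 0.146 RPKM in cTEC and 76.2 RPKM in skinEC.

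The stretches before the transcription starts of Apob, Resp18 and Maoa are shown because the first and second of these antigens were higher in mTEC and the third was not. They are from RefSeq, build GRCm38.p6, and run 5′ to 3′ along the gene's strand up to the first annotated base of the gene, which for Apob lies 48 bases before the listed start. Windows were used for 5 of the members (Fezf2, Chd4, Apob, Maoa and Resp18). Ttr was left out before the search, so its missing window does not describe the RefSeq table. Capitals mark the TATA box TATAAA, the GC box GGGCGG and the CCAAT box, searched on both strands. The windows are chr12:7977427-7977628 on the plus strand for Apob, chr1:75278416-75278665 on the minus strand for Resp18 and chrX:16619448-16619697 on the plus strand for Maoa.
Apob: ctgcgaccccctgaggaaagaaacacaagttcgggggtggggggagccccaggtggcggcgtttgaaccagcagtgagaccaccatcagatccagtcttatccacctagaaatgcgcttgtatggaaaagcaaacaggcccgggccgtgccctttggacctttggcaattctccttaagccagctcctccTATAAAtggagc
Resp18: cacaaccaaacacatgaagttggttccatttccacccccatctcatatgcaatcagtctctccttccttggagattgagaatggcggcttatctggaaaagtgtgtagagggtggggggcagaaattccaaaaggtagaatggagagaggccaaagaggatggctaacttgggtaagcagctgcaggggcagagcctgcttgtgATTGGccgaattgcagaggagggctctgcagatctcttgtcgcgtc
Maoa: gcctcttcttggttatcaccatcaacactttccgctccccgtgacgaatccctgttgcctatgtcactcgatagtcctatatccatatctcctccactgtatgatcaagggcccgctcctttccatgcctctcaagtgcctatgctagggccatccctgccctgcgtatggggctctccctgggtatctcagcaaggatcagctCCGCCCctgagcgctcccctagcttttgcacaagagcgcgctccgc

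The windows held different motifs. Apob had 1 match to the TATA box and none to the others, Resp18 had 1 match to the CCAAT box on the reverse strand, and Maoa had 1 match to the GC box on the reverse strand. In the 250 bases before the start, Fezf2 had 1 match to the GC box and none to the others, and the 2 annotated starts of Chd4 had 2 and 3 matches to the GC box, the latter with 1 match to the CCAAT box. A match describes the letters only. Over the 32851 starts of the RefSeq table, 12.4% held TATAAA, 32.7% the GC box and 33.8% the CCAAT box in the same stretch. The observed over expected ratio of CpG was 0.84 and 0.99 for Chd4, 0.64 for Fezf2, 0.60 for Maoa, 0.37 for Apob and 0.25 for Resp18, with a median of 0.37 over all starts. Chd4, Maoa and Fezf2 were above that median, Resp18 was below it, and Apob was just below it (0.368 against 0.373). For Apob the ratio was taken over all 250 bases, including the 48 left out of the window shown.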

How the data were processed

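Per the file headers, the authors deposited RPKM per gene for 1 library each of cTEC, mTEC and skinEC. CASAVA 1.8.2 and the build mm9 stand in the submitters' processing notes. The aligner is not given in the sources used here, nor are the annotation and the strand setting, which leaves overlapping and antisense genes uncertain. Only the first of the 5 sheets was used. Its 22663 rows gave 22609 symbols, keeping the row with the largest sum for 47 repeated symbols. Ratios are log2((RPKM + 1)/(RPKM + 1)), a scale that shrinks the difference of low genes, and a gene counted as higher from a ratio of 2 (4-fold), over 16869 genes that reached 1 RPKM in any library. The median of a list uses only its genes that reached that level. A gene can reach it through mTEC alone, which can raise the medians of mTEC over the others. With 1 library a group there is no p-value. Depth came from low values, which rise in steps of 1 read. Of 362 genes under 0.05 RPKM in both cTEC and skinEC, 279 had a ratio of small whole numbers at a depth ratio of 1.01 (tolerance 0.02%), as had 52 of 73 for mTEC and cTEC and 38 of 51 for mTEC and skinEC. The depth of mTEC came from 375 chemosensory receptor genes with coding lengths from GENCODE M21, 77.9% of them whole within 0.02 reads. Reads of a member use its RefSeq-matched GENCODE M21 transcript, a later annotation, are estimates, and are not independent molecules. The search for depth ratios and the counting rule were tested on simulated data. Levels of all 8 members are given. The nearest genes are the 5 (Fezf2) or 3 (others) at the smallest Euclidean distance over log2(RPKM + 1), leaving out provisional models. Of each list, the largest 1 or 2 ratios of mTEC over cTEC and the smallest are named, and other genes were chosen after their values were seen. Some genes that this rule takes are not reported here. The members and the 23 gene lists were chosen with earlier results of these data known. Of the table's Entrez numbers, 22437 matched the RefSeq table, used for names and gene order. Python 3.11.15, pandas 2.3.3 and matplotlib 3.10.9 were used. Alternatives covered the pseudocount, scaling, fold, level and filter.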

Additional observations from a re-analysis of the deposited data

How the results depend on the processing

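The 6 members higher in mTEC stayed so in both comparisons under a pseudocount of 0.1 RPKM, a fold of 2 and the 3 other scalings. At a fold of 8 they numbered 5 over cTEC (without Apob) and 5 over skinEC (without Calb1). With a pseudocount of 5 RPKM they numbered 3 over cTEC and 3 over skinEC. Members higher in skinEC than in mTEC numbered 1 (Maoa) in place of 0 with a pseudocount of 0.1 RPKM or a fold of 2, those higher in skinEC than in cTEC 1 (Maoa) with a fold of 2, and those higher in cTEC than in skinEC 1 (Resp18) with a pseudocount of 0.1 RPKM. At 0.1 RPKM cTEC held 5 members, and at 10 RPKM cTEC held 1 and mTEC 5.

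Counts over all genes moved by more than 1.5 times as follows. Genes higher in mTEC than in cTEC (2569) numbered 4554 and 881 with pseudocounts of 0.1 and 5 RPKM, 3938 on the TPM scale without the 50 largest genes, and 5203 and 1204 at folds of 2 and 8. Those higher in cTEC than in mTEC (454) numbered 221 with a pseudocount of 5 RPKM and 1834 and 122 at folds of 2 and 8. Those higher in mTEC than in skinEC (2834) numbered 5030 and 1020 with those pseudocounts, 4321 on the TPM scale, 4600 on it without the 50 largest genes, and 5736 and 1464 at those folds. Those higher in skinEC than in mTEC (708) numbered 373 with a pseudocount of 5 RPKM, 434 with the median ratio scaling, and 2812 and 194 at those folds. Those higher in cTEC than in skinEC (1062) numbered 1989 and 445 with those pseudocounts, 1642 on the TPM scale, 1639 on it without the 50 largest genes, and 2596 and 507 at those folds. Those higher in skinEC than in cTEC (981) numbered 1490 and 471 with those pseudocounts, and 2418 and 447 at those folds. The pseudocount decides how easily low genes pass and the fold is the rule itself; the cause of the shifts under scaling was not tested. The TPM scale moved the median of all genes by 0.31 for mTEC over skinEC and 0.20 for cTEC over skinEC, and the median ratio scaling by 0.40 for mTEC over skinEC.

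No paired analysis was possible because each population has 1 library and no result comes from a test. For the same reason there is no value without a library. Of 120 member ratios under alternatives, 1 changed sign, that of Maoa for mTEC over cTEC. Ttr in cTEC and Fabp9 in skinEC rest on about 1 read each, which limits their ratios.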
